A study of Mus musculus with 15 samples.

Results

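The angiomotins and the Hippo pathway genes they act with were followed in heart muscle of male mice with chronic kidney disease. The set held 10 of the 55487 genes in the deposited tables: the 3 angiomotins Amot, Amotl1 and Amotl2, the kinases Lats1 and Lats2, the coactivators Yap1 and Wwtr1, the DNA-binding factors Tead1 and Tead4, and the cofactor Vgll4. They were picked by name with the comparison of the 2 groups already known, so their differences between groups are a description and support nothing further. All 10 were among the 20718 genes with enough counts to be tested.

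The kidney disease group was 7 male mice with a mutation of the X-linked gene Col4a5, and the other group was 8 male wild-type littermates. Both groups were fed normal chow and killed at 225 days, when the labels place the mutants at an advanced stage of kidney disease. For both groups the titles name isoflurane as the anaesthetic and the protocol names ketamine with xylazine. The labels call the mutation a knockdown in places and a knockout in the design text, and say nothing of strain or of the cells it acts in. RNA came from the midline of the left ventricle's free wall, was depleted of ribosomal RNA and sequenced, with 1 library per animal. The design text calls the animals biological replicates. The study asked how the heart, including its metabolism, is altered in this model.

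Hippo signalling is a kinase cascade. When it is active, LATS kinases phosphorylate the coactivators YAP and TAZ, which are then held in the cytoplasm or degraded, and when it is inactive the coactivators enter the nucleus and switch on genes through TEAD factors. Angiomotins are scaffold proteins of cell junctions and the actin cytoskeleton that bind YAP and TAZ and keep them out of the nucleus. In the heart the pathway is best known for limiting cardiomyocyte proliferation and heart size during development and for its part in the response to injury.

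The promoters of the 3 angiomotin genes are shown because Amotl2 is a known YAP target and Amot was the angiomotin that differed between the groups. The windows run 250 bases before to 50 bases after the annotated start (RefSeq, GRCm38.p6) and are written 5′ to 3′ on the gene's own strand. Capitals mark the core of the TEAD motif, GGAATG or its reverse complement CATTCC, searched on both strands. Amot lies at chrX:145487590-145487889 (minus strand), Amotl1 at chr9:14614951-14615250 (minus strand) and Amotl2 at chr9:102717554-102717853 (plus strand). Each window lies inside the gene's span in the deposited tables, so the RefSeq start used here is not the outermost start of that gene.
Amot: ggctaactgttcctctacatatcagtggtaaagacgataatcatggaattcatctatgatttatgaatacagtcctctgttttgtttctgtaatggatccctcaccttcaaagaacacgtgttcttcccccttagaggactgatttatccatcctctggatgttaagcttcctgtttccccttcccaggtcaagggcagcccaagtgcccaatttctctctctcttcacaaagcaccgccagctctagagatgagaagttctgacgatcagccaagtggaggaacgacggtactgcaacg
Amotl1: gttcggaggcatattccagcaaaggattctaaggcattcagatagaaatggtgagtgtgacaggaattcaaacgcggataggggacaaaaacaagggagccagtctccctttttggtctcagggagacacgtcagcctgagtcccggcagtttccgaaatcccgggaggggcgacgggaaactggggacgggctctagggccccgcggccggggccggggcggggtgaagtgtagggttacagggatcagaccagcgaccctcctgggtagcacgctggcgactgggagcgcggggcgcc
Amotl2: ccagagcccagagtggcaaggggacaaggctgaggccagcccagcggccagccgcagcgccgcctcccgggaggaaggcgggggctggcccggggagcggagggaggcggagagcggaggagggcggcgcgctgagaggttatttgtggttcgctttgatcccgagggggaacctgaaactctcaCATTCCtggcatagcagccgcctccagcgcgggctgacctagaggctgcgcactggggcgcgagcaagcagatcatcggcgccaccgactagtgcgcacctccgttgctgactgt
The Amotl2 window held 1 match, starting 65 bases before the start site, and the Amot and Amotl1 windows held none. Windows were found for 8 of the 10 genes, with 2 each for Wwtr1 and Lats2, and not for Tead1 or Tead4. Of these 10 windows 6 held a match: Amotl2, Yap1, Vgll4, 1 of the Lats2 windows and both overlapping Wwtr1 windows, which share the same match. Among all 32851 mouse windows 14.7% held a match. GC content was 46.0% in the Amot window, 61.3% in that of Amotl1 and 68.7% in that of Amotl2, against a median of 52.7% over all windows.

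Library totals were 54263014 to 65519279 counts in kidney disease and 48748379 to 57962094 counts in wild type. Col4a5, the mutated gene, had 9.19 to 16.2 CPM (counts scaled to library size by the TMM method) in the 7 kidney disease animals and 50.4 to 65.7 CPM in the 8 wild-type animals, so every library matched its label. Genes were tested with edgeR's quasi-likelihood test, and a gene was called at a Benjamini-Hochberg adjusted p under 0.05 over all genes tested. By that rule 168 genes rose and 98 fell in kidney disease, and the median log2 fold change of all genes tested was 0.0042. The libraries divide by their most abundant transcript, which was mt-Co1 in 4 kidney disease and 6 wild-type libraries and Ttn in 3 kidney disease and 2 wild-type libraries. One kidney disease library, from animal 6, stands apart. It was the lowest of its group for 8 of the 10 genes, all except Tead4 and Vgll4. It had the lowest summed level of 8 cardiomyocyte markers, 89128 CPM. The kidney disease median of that sum was 105859 CPM and the highest 114755 CPM, against 108370 to 117326 CPM in wild type. The median lay below every wild-type library, so low cardiomyocyte sums were not confined to animal 6. Animal 6 also had the highest summed level in its group of endothelial markers, 1702 CPM, and of macrophage markers, 481 CPM. Its atrial markers were the lowest of its group, 31.7 CPM, but atrial sums reached as low as 34.4 CPM in wild type. For the 8 genes lowest in animal 6, log2 fold changes are given with and without it. Other pathway genes and the marker sums include it unless stated. Some of these, such as Tnik, Patj, Nf2 and Dock5, were also lowest in animal 6 within kidney disease.

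Amot was the single gene of the 10 that was called: 1 fell and 0 rose, where 0.473% of all genes tested fell, 0.811% rose and 1.28% did either. Since the genes were chosen with this comparison known, nothing is read from that share. Amot is the founding angiomotin, a junction and actin scaffold that binds YAP (ENSMUSG00000041688, chromosome X, 145446425 to 145505181, GRCm38, minus strand). Its lowest, median and highest levels were 20.5, 24.0 and 26.6 CPM in kidney disease and 25.9, 28.1 and 34.9 CPM in wild type. Of the kidney disease animals 6 lay below every wild-type animal, and animal 5, at 26.6 CPM, lay above 1 of them. The means were 23.6 ± 1.91 CPM (SD, n = 7) in kidney disease and 28.6 ± 2.71 CPM (SD, n = 8) in wild type, a log2 fold change of -0.28 (SE 0.065, edgeR adjusted p = 0.042). Counts behind these values were 1264 to 1745 in each kidney disease library and 1359 to 1620 in each wild-type library, so raw counts overlapped and the separation appeared after scaling for library size. In bulk tissue, fewer cells of a type and less RNA per cell cannot be told apart.

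The size of the Amot difference held better than its call. When each library was left out in turn, the log2 fold change ran from -0.31 to -0.23 and the call was kept in 3 of 15 cases, those without kidney disease animal 5 or wild-type animal 2 or 7. Without kidney disease animal 6 it was -0.24 (edgeR adjusted p = 0.071), and without wild-type animal 3, the highest of all, it was -0.23 (edgeR adjusted p = 0.074). Among the libraries led by mt-Co1 it was -0.32 (edgeR adjusted p = 0.122).

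Amot lies on the same chromosome as the mutated gene, with 3.757 Mb between the end of Col4a5 and Amot. Of the 8 other tested genes that start within 2 Mb of Amot, 0 were called and their log2 fold changes ran from -0.28 (Pak3, SE 0.37) to 0.26 (Capn6, SE 0.25). All 8 were low, the highest being Gm5644 with a mean of 3.83 CPM in kidney disease and 3.57 CPM in wild type, so small differences were hard to detect among them. Whether the position of Amot has a part in its difference was not tested.

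Amotl1 and Amotl2, the paralogues of Amot with the same YAP-binding scaffold role, were not called. Amotl1 (ENSMUSG00000013076, chromosome 9, 14541966 to 14645056, minus strand) had a lowest, median and highest level of 127, 172 and 180 CPM in kidney disease and 158, 180 and 191.6 CPM in wild type. Kidney disease animal 6 alone lay below all wild-type animals, and the other 6 lay within the wild-type range. The log2 fold change was -0.083 (SE 0.071), and -0.027 without animal 6. Amotl2 (ENSMUSG00000032531, chromosome 9, 102716672 to 102733418, plus strand) had 98.5, 128 and 141 CPM in kidney disease and 115, 126 and 177 CPM in wild type. The groups overlapped, with animal 6 lowest in kidney disease and animal 3 highest in wild type. The log2 fold change was -0.11 (SE 0.090), -0.056 without kidney disease animal 6 and -0.039 without wild-type animal 3.

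**Figure D1:**
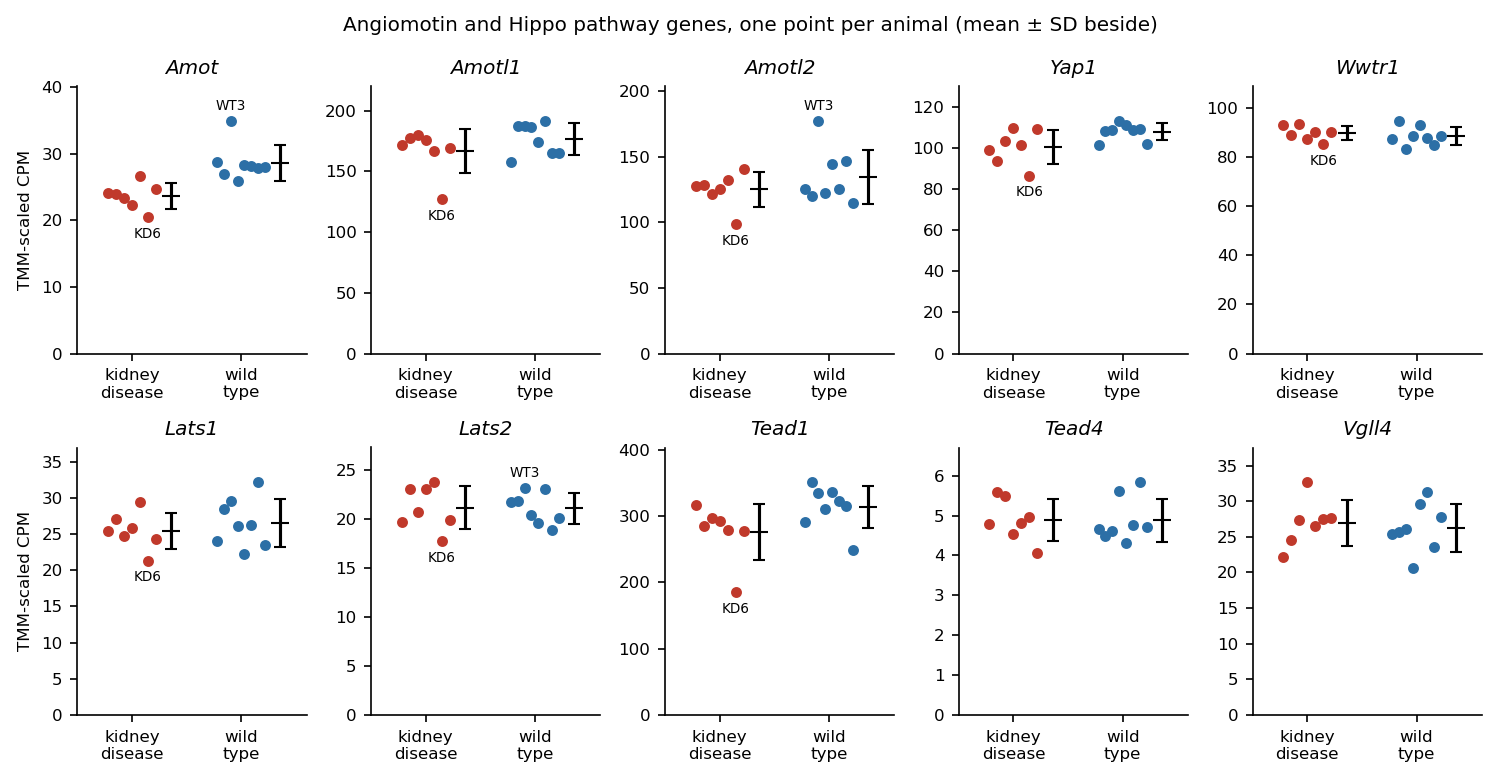
TMM-scaled CPM of the 10 genes, 1 point per animal, with 7 kidney disease animals (red) left of 8 wild-type animals (blue) and the mean ± SD beside each group. Kidney disease animal 6 (KD6) and wild-type animal 3 (WT3) are named where they are the lowest or highest of their group. The ranges of the groups overlap for all 10 genes, and for Amot 6 of the 7 kidney disease points lie below all wild-type points.

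The LATS kinases, which phosphorylate YAP and TAZ, had nearly equal means in the 2 groups. Lats1 (ENSMUSG00000040021, chromosome 10, 7681214 to 7716460, plus strand) had a lowest, median and highest level of 21.3, 25.4 and 29.4 CPM in kidney disease and 22.2, 26.2 and 32.1 CPM in wild type, a log2 fold change of -0.059 (SE 0.079), and -0.021 without kidney disease animal 6, the lowest. Lats2 (ENSMUSG00000021959, chromosome 14, 57689662 to 57758388, minus strand), a kinase that is itself a YAP target, had 17.8, 20.7 and 23.7 CPM in kidney disease and 18.9, 21.02 and 23.2 CPM in wild type, a log2 fold change of 0.0042 (SE 0.068), and 0.042 without animal 6. Both ranges overlapped almost entirely. The annotated gene Gm49361 shares 42.4% of the exon bases of Lats2 on the same strand and had 0 counts in every library. With 0 counts for Gm49361, reads in the shared bases were not counted for both genes. The sources used here do not say whether they were counted for Lats2 or left out. The Lats2 level is therefore uncertain and may be too low.

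The coactivators are the output of the pathway, and neither was called. Yap1 (ENSMUSG00000053110, chromosome 9, 7931999 to 8004596, minus strand) encodes YAP and had a lowest, median and highest level of 86.6, 101 and 110 CPM in kidney disease and 101, 109 and 113 CPM in wild type. Of the kidney disease animals 4 lay within the wild-type range and 3 below it. The log2 fold change was -0.10 (SE 0.055), and -0.071 without kidney disease animal 6, the lowest. Wwtr1 (ENSMUSG00000027803, chromosome 3, 57455649 to 57575910, minus strand) encodes TAZ and had 85.3, 90.0 and 93.6 CPM in kidney disease and 83.2, 88.3 and 94.7 CPM in wild type, a log2 fold change of 0.020 (SE 0.045), and 0.032 without animal 6. Its biological coefficient of variation was 7.38%, the smallest of the 10 genes. This is edgeR's model estimate for the gene, drawn towards the trend over all genes, and not the observed spread. The observed mean and SD were 89.8 ± 2.93 CPM in kidney disease and 88.5 ± 3.81 CPM in wild type (n = 7 and 8). A stretch of 116 exon bases of Yap1 overlaps Gm20416 on the opposite strand, which had at most 37 counts in a library.

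TEAD factors carry YAP and TAZ to DNA, and Tead1 is the main one in heart muscle. Tead1 (ENSMUSG00000055320, chromosome 7, 112679318 to 112906807, plus strand) had a lowest, median and highest level of 185, 286 and 316 CPM in kidney disease and 249, 319 and 351 CPM in wild type. Animal 6 alone lay below the wild-type range, and its value was 185 CPM against 277 CPM in the next lowest kidney disease animal. The log2 fold change was -0.19 (SE 0.094), and -0.11 without animal 6. Tead1 also had the largest biological coefficient of variation of the 10 genes, 13.4%.

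Tead4 (ENSMUSG00000030353, chromosome 6, 128224288 to 128300823, minus strand), another TEAD factor, had 4.06, 4.81 and 5.59 CPM in kidney disease and 4.32, 4.69 and 5.83 CPM in wild type, a log2 fold change of 0.0040 (SE 0.093). Vgll4 (ENSMUSG00000030315, chromosome 6, 114860628 to 114969994, minus strand) encodes a cofactor that binds TEAD factors in competition with YAP. It had 22.2, 27.4 and 32.6 CPM in kidney disease and 20.6, 25.9 and 31.4 CPM in wild type, a log2 fold change of 0.036 (SE 0.086). For both genes the 2 groups covered nearly the same range. Over the 10 genes the median log2 fold change was -0.071, with 6 below 0, beside 0.0042 over all genes tested. Without kidney disease animal 6 that median was -0.024, again with 6 below 0.

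**Figure D2:**
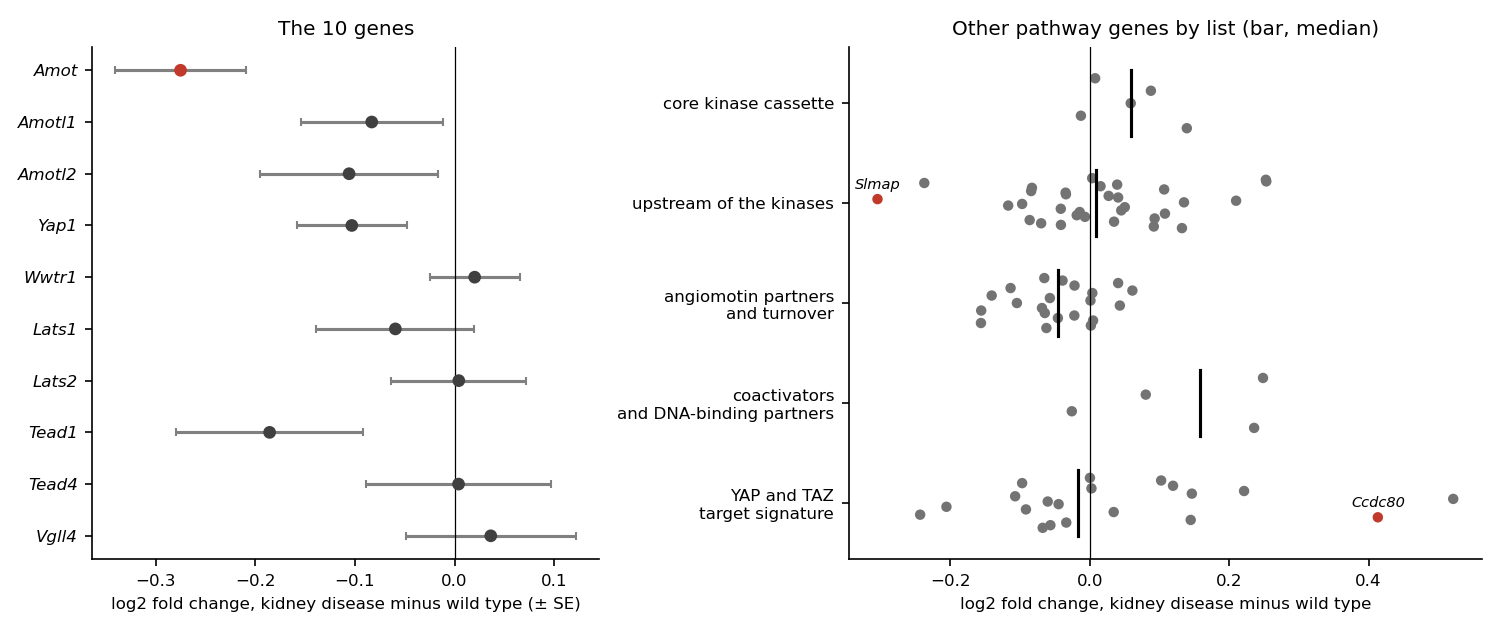
Log2 fold changes, kidney disease minus wild type, of the 10 genes with their standard errors (left) and of the other pathway genes, 1 point per gene with the list's median as a bar (right). Red marks a gene with an adjusted p under 0.05. Amot at -0.28, Slmap at -0.30 and Ccdc80 at 0.41 are the called genes, and most of the rest lie near 0.

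Kidney disease animal 6 was set beside transcript length. In that library, protein-coding genes had median deviations from the group mean, on the log2 scale, of -0.15 at 8 kb of exon and over, -0.033 at 5 to 8 kb, 0.10 at 2 to 5 kb and 0.34 under 2 kb. At 8 kb and over, the next lowest kidney disease library had 0.0025. Of the genes of at least 8 kb, Amot deviated by -0.20, Amotl1 by -0.39, Yap1 by -0.21 and Tead1 by -0.56 in that animal, all beyond the median of their class. Of those of 5 to 8 kb, Amotl2 deviated by -0.34, Lats1 by -0.25, Lats2 by -0.24 and Vgll4 by 0.042. Wwtr1, at -0.073, was below a class whose median was above 0, and Tead4, of the same class, was at 0.026. In wild type, the medians of the libraries ran from -0.064 (animal 8) to 0.060 (animal 7) at 8 kb and over. Under 2 kb they ran from -0.24 (animal 7) to 0.14 (animal 1). Between groups, the 2424 genes of at least 8 kb had a median log2 fold change of -0.028, and -0.0079 without kidney disease animal 6. Amot itself had -0.24 without that animal. The part of transcript length or of cell makeup in the values of animal 6 was not tested.

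**Figure D3:**
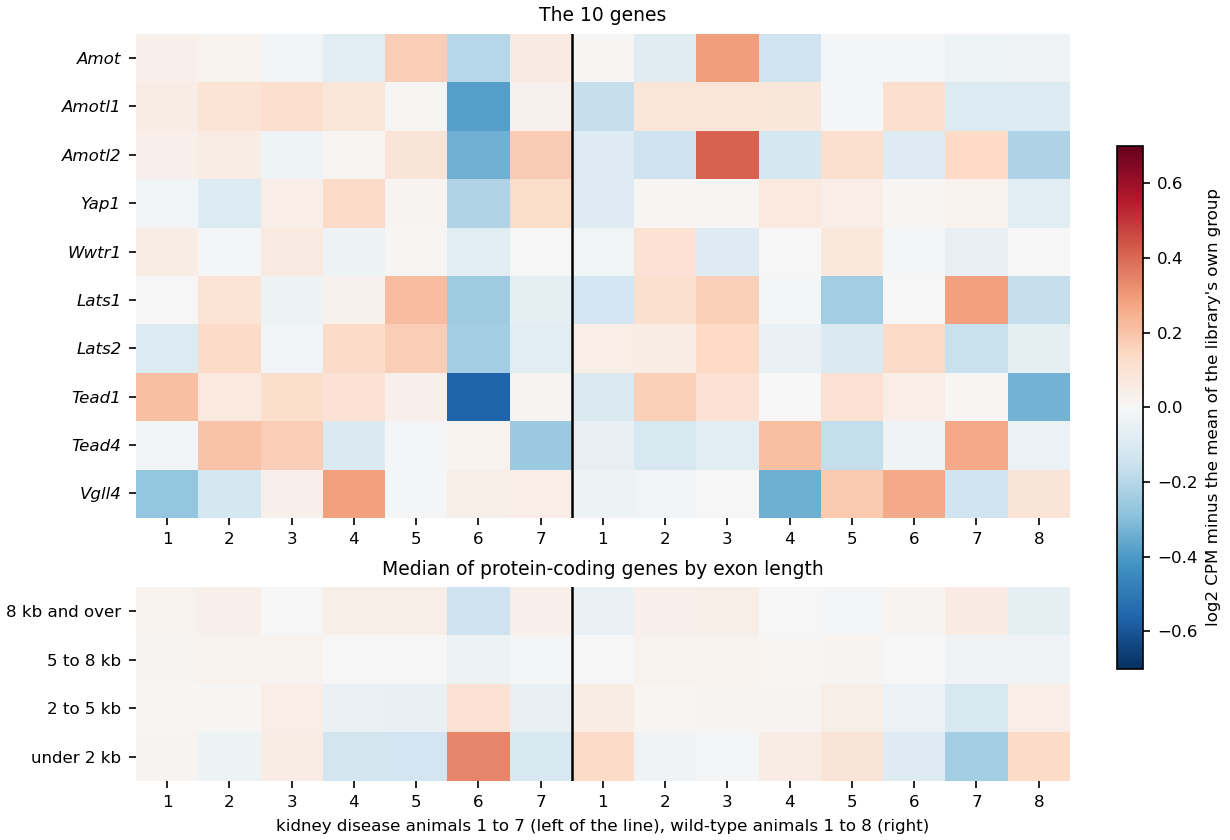
Deviation of each library from its group's mean, in log2 CPM, for the 10 genes (top) and as the median of protein-coding genes in 4 classes of exon length (bottom), with kidney disease animals 1 to 7 left of the line and wild-type animals 1 to 8 right of it. The column of kidney disease animal 6 is below 0 for 8 of the 10 genes and for genes of at least 8 kb, and at 0.34 for genes under 2 kb. Wild-type animal 3 is high for Amot and Amotl2.

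Levels of different genes were compared as deposited FPKM, which divide counts by exon length and library total. In wild type, Tead1 was highest at 22.7 ± 2.52 FPKM (SD, n = 8), followed by Amotl2 at 20.98 ± 3.32, Wwtr1 at 18.1 ± 1.01 and Amotl1 at 17.2 ± 1.498 FPKM. Yap1 came next at 11.4 ± 0.752 FPKM, and Vgll4, Lats1, Amot and Lats2 stood at 4.77 ± 0.673, 3.57 ± 0.589, 3.33 ± 0.318 and 2.96 ± 0.237 FPKM. Tead4 was lowest, at 1.33 ± 0.198 FPKM. Amot was thus the scarcest angiomotin per length, while Amotl1 and Amotl2 stood near Tead1 and Wwtr1.

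Of the 9 neighbouring pairs in this order, 5 differed in a two-sided exact sign-flip test over the 8 wild-type libraries, adjusted over the 9 pairs; the smallest p it can give is 0.0078. Amotl1 over Yap1, Yap1 over Vgll4, Amot over Lats2 and Lats2 over Tead4 held in 8 of 8 libraries (exact test, adjusted p = 0.018 each), and Vgll4 over Lats1 in 7 of 8 (exact test, adjusted p = 0.028). The exon bases that Lats2 shares with Gm49361 limit both pairs with Lats2. Reads left uncounted there would make the FPKM of Lats2 too low, and its place below Amot, Lats1 and Vgll4 may then not hold. Neighbouring pairs among Tead1, Amotl2, Wwtr1 and Amotl1 did not differ beyond their spread (exact test, adjusted p from 0.059 to 0.13). Nor did Lats1 differ from Amot (exact test, adjusted p = 0.24). The exact test measures the spread between animals. An error in a gene's exon length would be the same in every library and would not show in it.

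The kidney disease animals had the same order except at 1 place. Amot averaged 2.88 ± 0.283 FPKM in kidney disease, and Lats2 averaged 3.11 ± 0.398 FPKM there (SD, n = 7). Amot stood above Lats2 in 2 of 7 kidney disease libraries, where the pair did not differ (exact test, adjusted p = 0.10), against 8 of 8 wild-type libraries. The remaining genes had 20.8 ± 3.24 (Tead1), 20.4 ± 2.53 (Amotl2), 19.2 ± 0.751 (Wwtr1), 16.99 ± 2.02 (Amotl1), 11.1 ± 1.21 (Yap1), 5.12 ± 0.757 (Vgll4), 3.58 ± 0.419 (Lats1) and 1.39 ± 0.130 FPKM (Tead4) in kidney disease. The place of Amot below Lats2 is not independent of the difference described above and carries the same limit on the level of Lats2. Wwtr1 over Amotl1 and Lats1 over Amot, which did not differ in wild type, held in 7 of 7 kidney disease libraries (exact test, adjusted p = 0.023 each), and whether the groups differ in this was not tested.

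**Figure D4:**
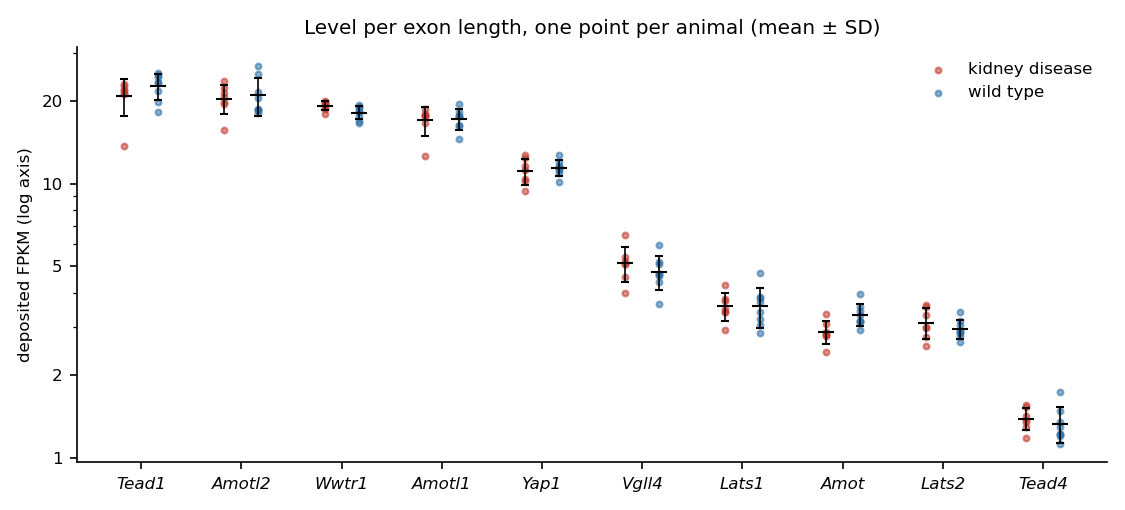
Deposited FPKM of the 10 genes on a log axis, in the order of their wild-type means, with kidney disease (red) left of wild type (blue), 1 point per animal and the mean ± SD. Tead1, Amotl2, Wwtr1 and Amotl1 lie between 16.99 and 22.7 FPKM on average in both groups, and Amot lies at 2.88 FPKM in kidney disease and 3.33 FPKM in wild type.

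Covariation of the genes among animals of a group was examined next. Each gene's log2 CPM was centred on its group's mean and all 45 pairs of the 10 genes were correlated over the 15 libraries by permutation within groups, with adjustment over the 45 pairs. By Pearson's r, 0 pairs had an adjusted p under 0.05 and 9 had an unadjusted p under 0.05. The pair with the smallest p was Amot and Amotl2, with r = 0.82 (permutation p = 0.0015, adjusted p = 0.068) and Spearman's rho = 0.72 (permutation p = 0.0029, adjusted p = 0.13). Their r was 0.71 without the 2 animals farthest from the median of Amot, wild-type animal 3 and kidney disease animal 5. It was 0.76 without kidney disease animal 6 and 0.91 among the 10 libraries led by mt-Co1. That subset keeps wild-type animal 3 and kidney disease animal 6, the highest and lowest for both genes. The 5 libraries led by Ttn were too few for a value.

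The pair with the next smallest p was Amotl1 and Tead1, with r = 0.86 (permutation p = 0.0061, adjusted p = 0.14) and Spearman's rho = 0.62 (permutation p = 0.016, adjusted p = 0.35). That r was 0.59 without kidney disease animal 6. It was 0.56 without that animal and wild-type animal 1, the 2 farthest from the median of Amotl1. Among the libraries led by mt-Co1, which include both of these animals, it was 0.89. Much of the covariation came with animal 6: over the 45 pairs the median r was 0.27 with it and 0.058 without it.

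**Figure D5:**
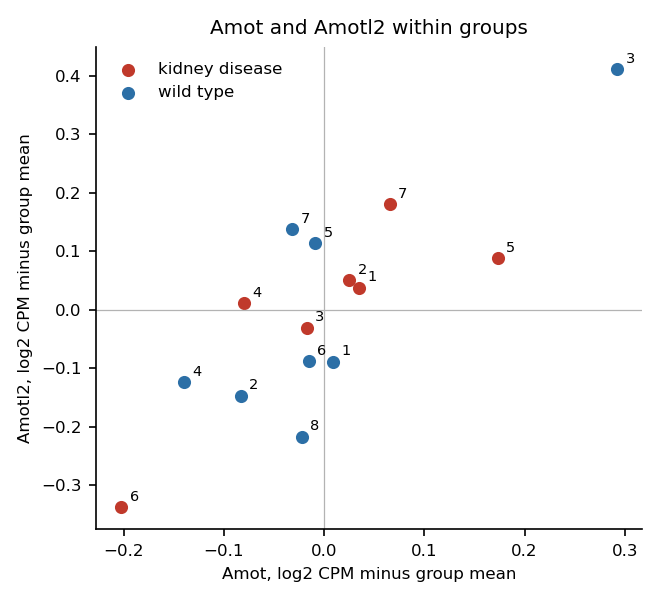
Amot (x axis) and Amotl2 (y axis) in each library, in log2 CPM minus the group's mean, with kidney disease in red and wild type in blue and the animal's number beside each point. Wild-type animal 3 is highest and kidney disease animal 6 lowest for both genes, and r was 0.82 over the 15 libraries.

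Among 14584 tested genes with a mean of at least 1 CPM, those most like Amot in the same centred values over 15 libraries were Bcl2l11 (r = 0.85), Amotl2 (0.82), Kctd11 (0.81), Tmed8 (0.81) and the pseudogene Gm8388 (0.81). Amotl2 thus ranked 2 of 14584 for likeness to Amot, while Amotl1 ranked 1943 (r = 0.37). The genes most like Amotl2 were Fmo5 (0.87), Sfn (0.86), Bcl2l11 (0.86), Peg13 (0.86) and Cep290 (0.86), and Amot ranked 17 in that list. These ranks are a description of the same 15 libraries, without a test, and kidney disease animal 6 and wild-type animal 3 carry part of them: without wild-type animal 3 the r of Amot and Amotl2 was 0.67.

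The rest of the pathway was read through lists of the genes that act around the 10. Of 63 listed genes outside the 10, 62 were tested; 0 rose and 1 fell, where 0.473% of all genes tested fell, and their median log2 fold change was -0.0029. Of the 5 remaining genes of the kinase cassette 0 were called: Stk3 and Stk4, the kinases that activate LATS, had log2 fold changes of 0.088 (SE 0.078) and 0.0078 (SE 0.059), their partner Sav1 had 0.059 (SE 0.051), and Mob1a, a LATS cofactor, had 0.14 (SE 0.068). Of 32 genes upstream of the kinases, 0 rose and 1, Slmap, fell. Nf2, the merlin scaffold that brings LATS to the membrane, had -0.12 (SE 0.063) and Tnik, a kinase related to the MAP4K activators of LATS, had -0.24 (SE 0.067, edgeR adjusted p = 0.093). Wtip, an inhibitor of LATS, had 0.25 (SE 0.098, edgeR adjusted p = 0.27).

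Slmap encodes a membrane-anchored subunit of the STRIPAK phosphatase complex, which inactivates the kinases STK3 and STK4, and it also lies at the sarcolemma of heart muscle (chromosome 14, 26413168 to 26534931). Its lowest, median and highest levels were 182, 193.8 and 213 CPM in kidney disease and 214, 244 and 268 CPM in wild type. All 7 kidney disease animals lay below all 8 wild-type animals. The means were 197.6 ± 10.05 CPM in kidney disease and 244 ± 20.05 CPM in wild type (SD, n = 7 and 8), a log2 fold change of -0.30 (SE 0.059, edgeR adjusted p = 0.016). The call was kept whichever library was left out. Among the libraries led by mt-Co1 the log2 fold change was -0.30 and the call was lost (edgeR adjusted p = 0.066).

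Of 21 angiomotin partners and turnover factors, 0 were called, with a median log2 fold change of -0.046. The 2 with the smallest p were Ctnna1, the alpha-catenin of cell junctions, at -0.16 (SE 0.063, edgeR adjusted p = 0.29), and Patj, a polarity scaffold that angiomotins bind, at -0.14 (SE 0.068, edgeR adjusted p = 0.41). Of 5 further coactivators and DNA-binding partners 4 were tested and 0 called. Tead2 had 0.24 (SE 0.098, edgeR adjusted p = 0.31) and Tead3 had -0.026 (SE 0.055). Vgll1 had at most 1 count in a kidney disease library and 4 in a wild-type library and was not tested.

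Genes known to be switched on by YAP and TAZ were read from a 22-gene signature drawn up in human tumours, of which Amotl2 and Lats2 belong to the 10 described above. Of the other 20, 1 rose and 0 fell, where 0.811% of all genes tested rose, and the median log2 fold change was -0.017. The 3 classical targets were not called. Ccn1, a matricellular protein, averaged 76.0 ± 15.5 CPM in kidney disease and 89.9 ± 18.8 CPM in wild type (log2 fold change -0.24, SE 0.13). Ccn2, its relative, averaged 62.6 ± 12.02 CPM in kidney disease and 61.1 ± 22.5 CPM in wild type (0.034, SE 0.18). Ankrd1, a cardiac ankyrin repeat protein, averaged 698 ± 138 CPM in kidney disease and 732 ± 164 CPM in wild type (-0.067, SE 0.13; SD, n = 7 and 8 throughout). The standard errors of these 3 exceed those of the 10 genes, so a difference the size of that of Amot may not be detectable in them.

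The target that rose was Ccdc80, which encodes a secreted matrix protein (chromosome 16, 45093402 to 45128077). Its lowest, median and highest levels were 93.5, 115 and 128 CPM in kidney disease and 71.7, 83.5 and 99.8 CPM in wild type. All 7 kidney disease animals lay above the wild-type mean, and the groups overlapped at their edges. The means were 113 ± 11.6 CPM in kidney disease and 84.8 ± 11.1 CPM in wild type (SD, n = 7 and 8), a log2 fold change of 0.41 (SE 0.083, edgeR adjusted p = 0.020), and the call was kept whichever library was left out. It was lost among the libraries led by mt-Co1 (0.39, edgeR adjusted p = 0.079). Myof, a membrane repair protein, had 0.22 (SE 0.078, edgeR adjusted p = 0.20) and Dock5, a Rac activator, had -0.21 (SE 0.077, edgeR adjusted p = 0.25).

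The tissue holds several cell types, whose markers were read for both groups. For scale, 0.811% of the 20718 genes tested rose and 0.473% fell. Of those 20718 genes, 10598 had a log2 fold change above 0 and 2568 an unadjusted edgeR p under 0.05. Of 8 cardiomyocyte markers and 10 endothelial markers 0 were called. All 10 endothelial markers nevertheless had a log2 fold change above 0 (median 0.12), 3 of them with an unadjusted edgeR p under 0.05. Of the cardiomyocyte markers 6 lay below 0 and 2 above it (median -0.067). An unadjusted edgeR p under 0.05 was found for 2 of these 8. Endothelial markers summed to between 1318 and 1702 CPM in kidney disease and between 1247 and 1485 CPM in wild type. Of 8 fibroblast markers 4 rose and 0 fell, with sums between 856 and 1011 CPM in kidney disease and between 755 and 914 CPM in wild type. Of 8 macrophage markers 6 rose and 0 fell, with sums between 341 and 481 CPM in kidney disease and between 239 and 298 CPM in wild type. Lymphocyte markers rose in 3 of 5 tested, and a single mesothelial marker of 4 rose. The 4 erythroid markers were not called, all 4 with a log2 fold change below 0 and an unadjusted edgeR p under 0.05 (median -0.61), and summed to between 223 and 584 CPM in kidney disease and between 398 and 757 CPM in wild type. Pericyte and smooth muscle (8), adipocyte (3), atrial (5) and Schwann cell (4) markers had 0 called, and no listed marker was at 0 in every library. All 3 adipocyte and all 4 Schwann cell markers had log2 fold changes below 0, and all 5 atrial markers above 0. Pericyte and smooth muscle markers were divided, 6 above 0 and 2 below. Within kidney disease, animal 6 gave the highest endothelial, macrophage and lymphocyte sums. It gave the lowest cardiomyocyte, fibroblast, erythroid, adipocyte, mesothelial, atrial and Schwann cell sums. Only its pericyte and smooth muscle sum was neither the highest nor the lowest. The part of these cell types in the values of Amot, Slmap and Ccdc80 was not tested.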

How the data were processed

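The deposited tables, 1 per library, give 55487 genes with their raw counts, CPM and FPKM. Alignment and counting tools named by the submitters' processing notes are STAR 2.7.9a, featureCounts 2.0.3 and Subread, with bcl2fastq and GRCm38; options for strand and shared reads were not given in the sources used here. Per the labels' protocols, RNA had an integrity number of at least 8 and was prepared with KAPA RiboErase. The deposited CPM (counts scaled to the library total) and FPKM (CPM per kilobase of exon) were both recovered from raw counts, to a relative tolerance of 1e-06; FPKM was used only to compare levels between genes. Symbols came from GENCODE M21 (55227 of the identifiers matched, 260 did not).

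Counts filtered with filterByExpr (minimum count 10) and scaled by TMM were tested with edgeR 4.0.16 (R 4.3.3; quasi-likelihood F test, group as the only term, two-sided) and adjusted by Benjamini-Hochberg over 20718 genes, a pipeline tested on simulated data. Differences on the log2 scale are kidney disease minus wild type, and CPM in the text is TMM-scaled with its SD over animals. Correlations used log2 CPM with a prior count of 2, centred by group, and 100000 permutations. No 2 libraries were alike within sampling noise (chi-square per degree of freedom at least 9.16 in 49 within-group pairs), so p-values rest on the spread between animals. At these depths counting error is small beside it for genes of many counts. For genes of few counts, such as some neighbours of Amot, it need not be. The 10 genes, the pathway and marker lists and the tests were chosen with earlier results of these data known. Named are the 10 genes, Col4a5, per pathway list the called genes and the 2 others with the smallest p, a fixed set of core genes, the 5 genes most like Amot or Amotl2, and the tested neighbours of Amot. Alternatives were DESeq2 1.42.0, limma-voom (limma 3.58.1), scaling by RLE or the upper quartile, other filters, no mitochondrial genes, a replicate block, the library split, libraries thinned to the smallest total, and each library left out in turn.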

Additional observations from a re-analysis of the deposited data

Results flagged for a closer look

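In 56 groups of values from the 28 pathway genes named, 4 had a highest or lowest animal that stood far from the rest of its group for the group's range; chance flags about 1 in 20 groups, or 2.8 here. Amot was 34.9 CPM in wild-type animal 3, where the next highest wild-type animal had 28.7 CPM. Amotl1 was 127 CPM in kidney disease animal 6, where the next lowest kidney disease animal had 167 CPM. Tead1 was 185 CPM in the same animal, where the next lowest had 277 CPM. Wtip, an inhibitor of LATS, was 6.67 CPM in kidney disease animal 1, where the next lowest had 9.47 CPM.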

How the results depend on the processing

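Against 266 genes called, DESeq2 called 640, the library split as a covariate 523, the replicate block 116, the libraries led by mt-Co1 86, and leaving out each library 97 to 388. Of the 10 genes 1 was called, and 0 without a filter (Amot -0.26, edgeR adjusted p = 0.074), with the replicate block (-0.27, edgeR adjusted p = 0.083), among the libraries led by mt-Co1, and in 12 of 15 runs with 1 library left out (range 0 to 1); over all alternatives the adjusted p of Amot ran from 0.0068 to 0.122. Of the other pathway genes 1 was called; DESeq2 and the split covariate called 2 (Slmap and Tnik), the libraries led by mt-Co1 0, and leaving out 1 library always 1. Of the other YAP and TAZ targets 1 was called, 0 with the replicate block (Ccdc80 0.40, edgeR adjusted p = 0.070) or among the libraries led by mt-Co1, and 1 to 2 on leaving out a library (2 without wild-type animal 7, with Myof). Pairs that varied together were 0, 1 with upper-quartile scaling, and 0 to 2 on leaving out a library (2 without wild-type animal 7, 1 without wild-type animal 8). Neighbouring levels that differed were 5, 6 in kidney disease libraries, and 4 to 6 on leaving out a wild-type library.

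Signs turned in these values, none of them called. Tead4 was -0.00079 with RLE, -0.0070 with upper-quartile scaling, -0.00022 with DESeq2, -0.0024 with limma-voom, -0.0027 with at least 1 CPM in 7 libraries and -0.0061 when thinned. Lats2 was -0.00030 with RLE, -0.0014 with upper-quartile scaling, -0.0047 with the replicate block, -0.0091 with the split covariate and -0.054 among the libraries led by mt-Co1. In that subset Stk4 was -0.00078, Vgll4 -0.022, Capn6 -0.12 and Hmgb1-ps2 -0.10. Stk4 was -0.0083 with the replicate block and Ccn2 -0.023 with the split covariate. On leaving out a library, Tead4 ran from -0.030 to 0.045, Lats2 from -0.026 to 0.042, Vgll4 from -0.016 to 0.078, Stk4 from -0.015 to 0.044, Ccn2 from -0.036 to 0.17, Ankrd1 from -0.14 to 0.025, Gm15057 from -0.34 to 0.11 and Hmgb1-ps2 from -0.090 to 0.18. The causes were not tested.

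The titles link same-numbered libraries of both groups by nothing but the number. The correlation of their deviations ran from -0.196 to 0.416 and passed 0.1 in 2 of 7 pairs. Of the 7, 2 correlated best with their own number, and the highest value joined libraries both led by Ttn. Such correlations cannot show how animals were matched, so whether the replicate block has a basis in the design was not settled. Genes of few counts, such as the neighbours of Amot, and Ccn1, Ccn2 and Ankrd1, which vary widely between animals, limit what can be detected.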
